A study of Mus musculus with 10 samples.

Results

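Costimulatory ligands, coinhibitory ligands and maturation markers were analysed in the mRNA of splenic CD8+ cDC1, the dendritic cells (DCs) that cross-present antigen to CD8+ T cells. The 10 genes were chosen by symbol and not by their values, although earlier results of these data were known. They are Cd40, Cd80, Cd86, Icosl, Cd274, Pdcd1lg2, Cd83, Ccr7, Fscn1 and Socs2, and all 10 were found among the 10767 genes of the deposited table. Ppef2+/+ and Ppef2-/- mice were compared to find out whether the loss of Ppef2, a calcium-binding phosphatase of CD8+ cDC1, alters gene expression. The Ppef2-/- mice carried on both alleles a knockout-first gene trap with a lacZ reporter between exons 4 and 5 and loxP sites around exon 5. They came from targeted embryonic stem cells of the EUCOMM project and were crossed with C57BL/6 mice, and the Ppef2+/+ mice had the intact gene. Mice of both genotypes were untreated and were kept in groups matched for sex and age at 8 to 13 weeks. Cells were sorted as live MHCII+CD11c+CD11b-CD8+ cells, with 3 mice pooled per library. There were 5 sorts, each with 1 library of each genotype, and thus 5 libraries per genotype.

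A T cell that recognises its antigen on a DC also reads a second set of signals from the surface of that DC. CD80 and CD86 bind CD28 and CTLA-4, ICOSL binds ICOS, and PD-L1 and PD-L2 bind the inhibitory receptor PD-1, while CD40 on the DC receives the signal of CD40L from the T cell. When DCs mature, whether after a microbial stimulus or in the steady state, they raise these surface molecules together with CD83, the chemokine receptor CCR7, the actin-bundling protein fascin and the cytokine signal inhibitor SOCS2.

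As a check of the labels, Ppef2 was lower in Ppef2-/- in 5 of 5 sorts (log2 difference -4.78, SE 0.51, adjusted p = 0.000121 by limma with the sort as a block). Whole reads could be calculated back for 9697 genes, and the libraries held between 1445690 and 4560101 reads in them. The Ppef2-/- library had 0.727 to 2.95 times the depth of the Ppef2+/+ library of its sort. All 16 cDC1 markers were in the table, and their summed level was 134500 to 139300 normalized counts in Ppef2+/+ and 133300 to 138100 in Ppef2-/-. The MHCII gene H2-Ab1, with a mean of 47170, was the highest of them. Of the markers of other cells, 4 of 10 B cell, 2 of 10 T cell and 2 of 6 neutrophil markers were in the table. Cd79a, Pax5, Cd3e, Cd3d and Cd3g were not listed, but Cd79b, Ms4a1, Cd22 and Fcrla were. These 4 B cell genes summed to 395 to 458 in Ppef2+/+ and 392 to 456 in Ppef2-/-, with Fcrla the highest (mean 160). Those of macrophages and monocytes (8 of 10), cDC2 (9 of 10) and pDC (8 of 8) were mostly listed. The macrophage and monocyte markers summed to 2091 to 2415 in Ppef2+/+ and 2080 to 2404 in Ppef2-/-. All these sums are of the deposited values, from which the sort means had been removed. In such pooled cells, fewer cells that carry an mRNA and less of that mRNA per cell cannot be told apart.

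All 10 genes were expressed, and their levels spanned a wide range. Per kb of exon, Cd83 was the highest with a mean of 1932 normalized counts over the 10 libraries, and Pdcd1lg2, which encodes PD-L2, was the lowest with 8.24. Between them were Cd86 (731 normalized counts per kb), Ccr7 (674), Icosl (484), Fscn1 (304), Cd274 (178), Cd80 (124), Cd40 (109) and Socs2 (31.5). In the deposited values, from which the sort means had been removed, the ranges of the libraries overlapped for the neighbours Cd86 and Ccr7, Cd274 and Cd80, and Cd80 and Cd40, and for no other neighbours in this order. With the sort means put back, Cd274 ranged from 82.4 to 308 per kb and overlapped with Fscn1 (201 to 407) too. The median of 10393 genes with a known exonic length was 57.1 per kb, so that Socs2 and Pdcd1lg2 were the members below it. The levels of PD-1 ligands thus differed from each other, and so did those of the CD28 ligands, with Cd86 far above Cd80.

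**Figure D1:**
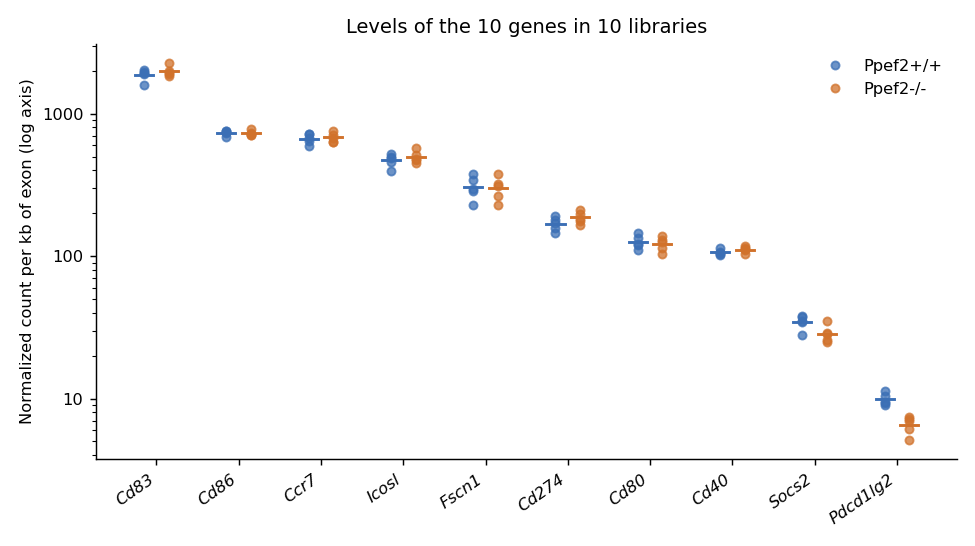
Deposited normalized counts per kb of exon (log axis) of the 10 genes, with 1 point per library (5 Ppef2+/+, 5 Ppef2-/-) and a bar at the mean of each genotype. The genes are in the order of their mean, from Cd83 at 1932 to Pdcd1lg2 at 8.24, and the genotypes overlap for 9 genes but not for Pdcd1lg2.

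No genotype difference passed the test in any of the 10 genes. By limma with the sort as a block, 0 of 10 had an adjusted p under 0.05, compared to 0.00929% of all genes, which is Ppef2 alone. At an unadjusted p under 0.05 there were also 0 of 10, compared to 4.29% of all genes, and under 0.10 there were 3 (Cd274, Pdcd1lg2 and Socs2), compared to 9.26%. The log2 difference was above 0 in 5 genes and below 0 in the other 5, and its median of 0.0048 lay beside 0.00089 for all genes. The adjusted p was between 0.995 and 0.999 for each of the 10. The deposited values carry a constraint that bears on every value below. Apart from 46 genes with floored values, none of them among the 10 described here, the sum of the paired libraries was constant from sort to sort. There, 1 library mirrors the other and the SD is the same in both genotypes.

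**Figure D2:**
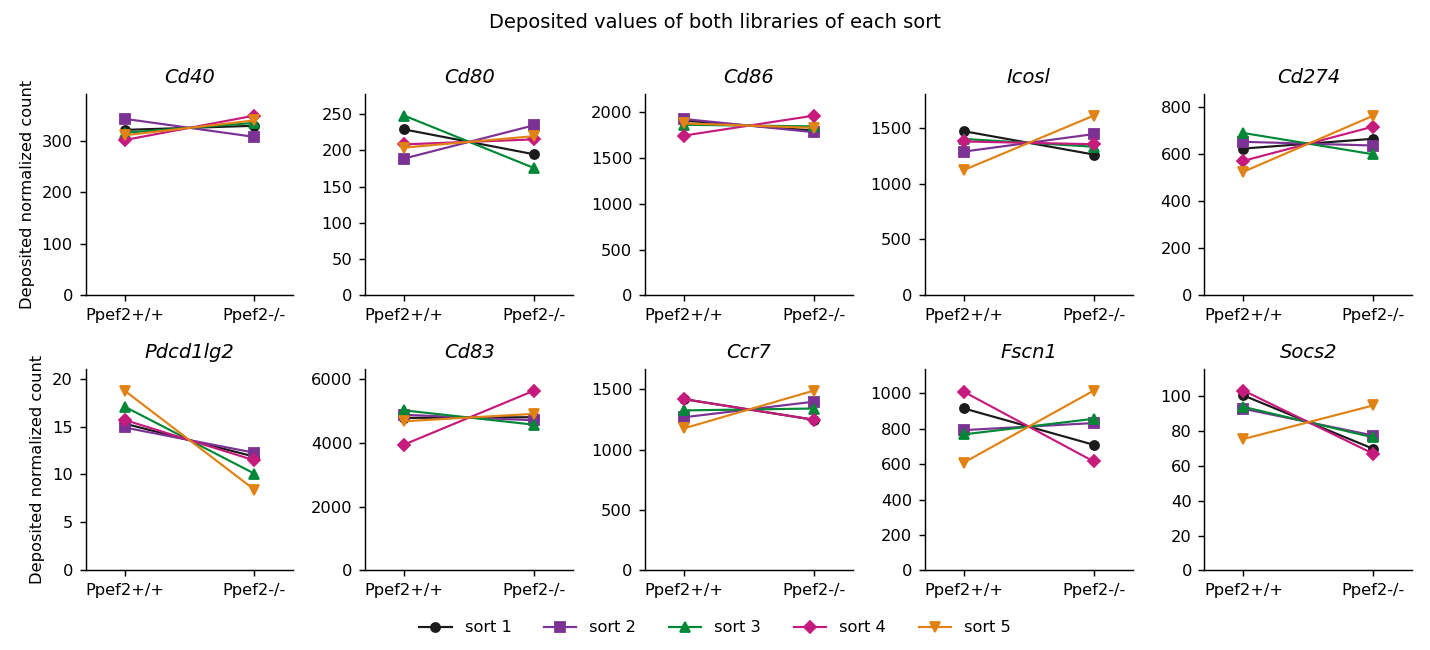
Deposited normalized counts of the 10 genes (axes start at 0), with a line joining the Ppef2+/+ and the Ppef2-/- library of each of the 5 sorts. The lines of a gene meet at 1 point because the paired sum is constant, and for Pdcd1lg2 all 5 run downwards, from 14.9 to 18.7 in Ppef2+/+ to 8.41 to 12.3 in Ppef2-/-.

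Cd40 encodes the receptor through which helper T cells license DCs. From sort 1 to sort 5, its normalized counts were 321, 343, 316, 302 and 311 in Ppef2+/+ and 329, 308, 335, 349 and 340 in Ppef2-/-, an order of sorts that is kept for all values given here. The Ppef2-/- library was the higher of the pair in every sort but the second, and the groups overlapped. Its means of 319 ± 15.5 and 332 ± 15.5 (SD, n = 5) gave a log2 difference of 0.06 with a 95% interval from -0.10 to 0.22 (adjusted p = 0.995). Cd40 was thus among the most even of the 10 genes. The SD of its 5 within-sort log2 differences was 0.14, at percentile 30.4 of 3764 genes of a similar level.

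Cd80 encodes the CD28 ligand B7-1. Its values were 229, 189, 248, 208 and 204 in Ppef2+/+ and 194, 234, 175, 215 and 219 in Ppef2-/-. The direction changed from sort to sort and the groups overlapped, with the Ppef2-/- library lower in sorts 1 and 3 and higher in sorts 2, 4 and 5. The log2 difference was -0.05 with a 95% interval from -0.27 to 0.17 (adjusted p = 0.997), and 0.058 without sort 3. Cd86, which encodes the related ligand B7-2, had 1911, 1929, 1866, 1748 and 1881 in Ppef2+/+ and 1803, 1785, 1848, 1966 and 1832 in Ppef2-/-. The Ppef2-/- library was lower by a small amount in 4 sorts and higher in sort 4, and the groups overlapped. Cd86 was the gene with the narrowest interval, from -0.13 to 0.09 around a log2 difference of -0.02 (adjusted p = 0.997), which was 0.0014 and 0.0085 without sort 1 or 2.

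Icosl encodes the ligand of ICOS. It had 1468, 1285, 1398, 1375 and 1120 normalized counts in Ppef2+/+ and 1259, 1441, 1328, 1351 and 1606 in Ppef2-/-. Sort 5 held the lowest Ppef2+/+ and the highest Ppef2-/- value of all 10 libraries, and the groups overlapped. The log2 difference was 0.07 (95% interval -0.09 to 0.23, adjusted p = 0.995), and it was 0.52 within sort 5 and between -0.22 and 0.17 within the others. Without sort 5 it was -0.039.

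Cd274 (chr19:29367455-29388095, plus strand, GENCODE M21 on GRCm38) encodes PD-L1, the ligand by which DCs restrain PD-1+ T cells. The deposited values were 624, 652, 690, 572 and 525 in Ppef2+/+ and 665, 636, 599, 717 and 763 in Ppef2-/-. The Ppef2-/- library was higher in sorts 1, 4 and 5 and lower in sorts 2 and 3, and the groups overlapped. The means of 612 ± 65.1 and 676 ± 65.1 (SD, n = 5) gave a log2 difference of 0.14 (95% interval -0.03 to 0.32, unadjusted p = 0.0983, adjusted p = 0.995). Without sort 3 the log2 difference was 0.23 with an unadjusted p of 0.0126, and the adjusted p did not pass in any setting. An antisense gene, AC119228.1, shares 511 exonic bases with Cd274, and since the libraries do not keep the strand, reads of both cannot be told apart there.

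The deposited values do not show how far Cd274 varied between the sorts, because the mean of each sort had been removed from them. With the sort means put back from whole reads, Cd274 was at 298, 439, 921, 970 and 434 in Ppef2+/+ and at 340, 423, 831, 1115 and 672 in Ppef2-/-. Both libraries of sorts 3 and 4 were above all 6 libraries of sorts 1, 2 and 5, in either genotype. The sort means ran from 319 in sort 1 to 1042 in sort 4, a 3.27-fold range. The SD of the log2 sort means was 0.71, at percentile 98.4 of 9697 genes, and it was 0.30 for Fscn1 (percentile 84.1), 0.29 for Pdcd1lg2 (82.1), 0.13 for Cd80, 0.12 for Cd40 and 0.11 for Socs2. Over the 10 libraries, the genes whose log2 level was most like that of Cd274 were Zbtb21 (Pearson r = 0.984), Nr4a2 (r = 0.979) and Dusp5 (r = 0.977), out of 7421 genes with a mean of at least 50. This is a description, since both libraries of a sort share that sort and the points are not independent. Nr4a2, an immediate early nuclear receptor, was at 311, 447, 1200, 1430 and 556 in Ppef2+/+ and at 404, 517, 1160, 1630 and 642 in Ppef2-/-. Dusp5, a phosphatase that inactivates ERK, was at 129, 158, 529, 472 and 191 in Ppef2+/+ and at 147, 171, 428, 450 and 286 in Ppef2-/-. In all these genes the high sorts were sorts 3 and 4.

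**Figure D3:**
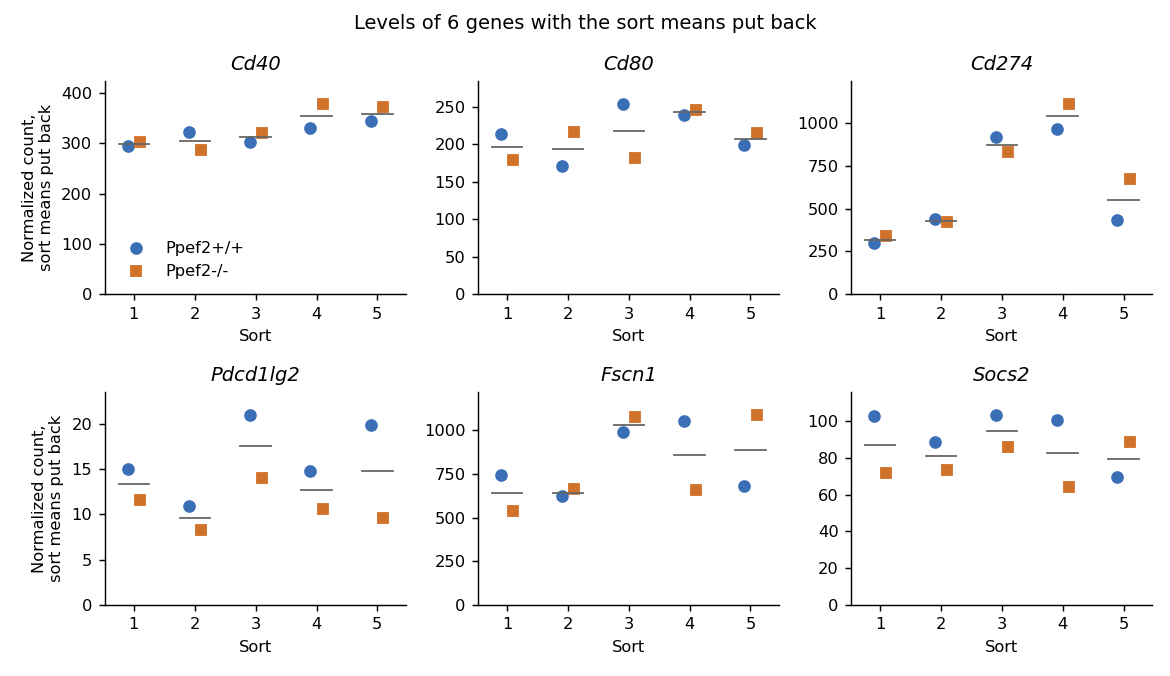
Normalized counts with the sort means put back (axes start at 0) of the 6 genes with whole reads, by sort, with a point per library and a grey bar at the mean of the sort. Cd274 had sort means from 319 to 1042, and sorts 3 and 4 were the highest in both genotypes, and Pdcd1lg2 was lower in Ppef2-/- in each sort.

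Pdcd1lg2 encodes PD-L2, the other ligand of PD-1, and lies 22.8 kb downstream of Cd274 at chr19:29410919-29471161. It had 15.3, 14.9, 17.1, 15.7 and 18.7 normalized counts in Ppef2+/+ and 11.9, 12.3, 10.1, 11.5 and 8.41 in Ppef2-/-. It was lower in Ppef2-/- in 5 of 5 sorts, as were 2.92% of all genes, while 0 of the 10 genes were higher in 5 of 5, compared to 3.26%. It was the 1 gene of the 10 whose deposited groups did not overlap, as was the case for 6.18% of all genes. The means of 16.3 ± 1.57 and 10.8 ± 1.57 (SD, n = 5) gave a log2 difference of -0.56 with a 95% interval from -1.22 to 0.10 (adjusted p = 0.995), and of -0.34 with a pseudocount of 10. The exact permutation test within the sorts gave a two-sided p of 0.0625, the smallest that 5 sorts allow. The one-way model without the sort gave an unadjusted p of 0.00339 and an adjusted p of 0.106. In that model 2 of the 10 genes, Pdcd1lg2 and Socs2, had an unadjusted p under 0.05, compared to 17.5% of all genes, and 0 had an adjusted p under 0.05, compared to 0.957%.

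The values of Pdcd1lg2 rested on few reads. These were 11, 8, 14, 16 and 20 reads for Ppef2+/+ and 25, 14, 15, 10 and 7 for Ppef2-/-, 140 in all. Of these, 50.7% were from Ppef2-/-, which had 60.9% of the depth. With the sort means put back, the values were 15.1, 10.9, 21.0, 14.8 and 19.9 in Ppef2+/+ and 11.6, 8.27, 14.1, 10.6 and 9.59 in Ppef2-/-, so that the groups then overlapped. After this step 0 of the 6 genes with whole reads had groups without overlap, compared to 0.536% of all such genes. A difference of Pdcd1lg2 did not pass the test at this depth, although each pair of libraries had the same order. By limma with the sort as a block but without a trend, its unadjusted p was 0.00455 and its adjusted p 0.890. In the deposited values, the summed level of the pDC markers (8 of 8 in the table) was 1415 to 1565 in Ppef2+/+ and 1273 to 1419 in Ppef2-/-. With the sort means put back, the sums were 1343, 1613, 1351, 1410 and 1755 in Ppef2+/+ and 1260, 1401, 1356, 1223 and 1460 in Ppef2-/-. These groups overlapped, and in sort 3 the sum was slightly higher in Ppef2-/-, unlike Pdcd1lg2. The part of pDC in the order of Pdcd1lg2 was not tested.

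RefSeq promoters were given for 5 of the 10 genes (Cd80, Icosl, Cd274, Pdcd1lg2 and Fscn1), and 250 bases upstream of the start were searched on both strands for an AP-1 motif (TGANTCA), a cyclic AMP response element (TGACGTCA) and a TATA box (TATAAA). The 2 windows with a match are shown 5′ to 3′ on the plus strand of GRCm38.p6, with the matches in capitals. The window of Cd80 covers bases -54 to -25 from the RefSeq start and holds an AP-1 match, as 6.75% of 32851 promoters do. GENCODE M21 places Cd80 at chr16:38455561-38496335 on the plus strand, so that this window lies within the gene there. The window of Fscn1, whose pairs of libraries differed the most for its level, covers bases -50 to -21 and holds the cyclic AMP response element, as 1.55% of promoters do, and the TATA box, as 12.4% do.
Cd80, chr16:38458879-38458908: atggccacacccTGATTCAgaactctcact
Fscn1, chr5:142960305-142960334: cacggTGACGTCAtcctccTATAAAaccct
None of the motifs was found in the 250 bases before the start of Icosl, Cd274 or Pdcd1lg2. A match describes the letters and not the binding of a factor.

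Among the maturation markers, Cd83 encodes a surface glycoprotein that stabilises MHCII and CD86 on DCs. It had 4774, 4871, 5010, 3940 and 4669 normalized counts in Ppef2+/+ and 4796, 4699, 4560, 5630 and 4901 in Ppef2-/-. The pair of sort 4 was wide apart and the other pairs were close, and the groups overlapped. The log2 difference was 0.08 (95% interval -0.06 to 0.22, adjusted p = 0.995), with 0.51 within sort 4 and -0.14 to 0.07 within the others. Without sort 4 it was -0.03.

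Ccr7 encodes the receptor that guides mature DCs into the T cell zone. Its values were 1420, 1269, 1326, 1419 and 1177 in Ppef2+/+ and 1248, 1399, 1342, 1249 and 1491 in Ppef2-/-. The Ppef2-/- library was lower in sorts 1 and 4, higher in sorts 2 and 5 and about even in sort 3, with overlapping groups. The log2 difference was 0.03 (95% interval -0.12 to 0.17, adjusted p = 0.997), and it was -0.0033 and -0.053 without sort 2 or 5.

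Fscn1 encodes fascin, which bundles actin in the dendrites of mature DCs. It lies at chr5:142960343-142973185 on the plus strand, on the chromosome of Ppef2 and 50.7 Mb from it. The deposited values were 915, 792, 768, 1009 and 609 in Ppef2+/+ and 709, 832, 856, 615 and 1016 in Ppef2-/-. Sorts 4 and 5 were nearly each other's opposite, with Ppef2-/- far lower in sort 4 and far higher in sort 5, and the groups overlapped fully. The log2 difference was -0.02 (95% interval -0.28 to 0.24, adjusted p = 0.999), while the differences within sorts 1 to 5 were -0.37, 0.07, 0.16, -0.71 and 0.74. It was 0.063 without sort 1 and 0.15 without sort 4, and without sort 5 it was -0.21 with an unadjusted p of 0.0447. The SD of these 5 differences was 0.55, at percentile 99.8 of 2255 genes of a similar level. The 95% interval rests on an SE of 0.12 that limma drew towards genes of a similar level. It is thus narrower than the 5 differences of Fscn1 alone would give. Each library had 457 to 1158 reads of Fscn1.

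With the sort means put back, Fscn1 was at 743, 623, 989, 1054 and 683 in Ppef2+/+ and at 538, 663, 1077, 660 and 1090 in Ppef2-/-. The 4 high libraries were those of Ppef2+/+ in sorts 3 and 4 and of Ppef2-/- in sorts 3 and 5. The genes most like it over the 10 libraries were Fbrsl1 (r = 0.927), Sema6d (r = 0.927) and the Notch ligand Jag1 (r = 0.918). The summed cDC2 markers, of which 9 of 10 were in the table and Mgl2 was not, differed in the direction of Fscn1 in sorts 4 and 5. In sorts 1, 2 and 3 they differed in the opposite direction. With the sort means put back their sum was 945, 1191, 1479, 1664 and 1147 in Ppef2+/+ and 965, 1148, 1413, 1259 and 1515 in Ppef2-/-. Irf4 was the highest of them, with a mean of 482. Of the T cell markers, 2 of 10 were in the table (Cd5 and Tcf7), and their sum was 127, 79.1, 138, 120 and 91.6 in Ppef2+/+ and 70.6, 105, 112, 87.7 and 153 in Ppef2-/-. The part of either in the differences of Fscn1 was not tested.

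Socs2 encodes an inhibitor of cytokine signals that mature DCs express. It had 100, 92.7, 93.8, 103 and 75.4 normalized counts in Ppef2+/+ and 69.7, 77.4, 76.3, 66.9 and 94.7 in Ppef2-/-. The Ppef2-/- library was lower in sorts 1 to 4 and higher in sort 5, which alone made the groups overlap. The means of 93.1 ± 10.8 and 77.0 ± 10.8 (SD, n = 5) gave a log2 difference of -0.27 (95% interval -0.58 to 0.03, unadjusted p = 0.0789, adjusted p = 0.995). The two-sided exact permutation test within the sorts gave p = 0.25. Without sort 5 the log2 difference was -0.42 with an unadjusted p of 0.0111. Socs2 rested on 885 reads, of which 56.2% were from Ppef2-/-, and its most similar genes over the 10 libraries were Serinc5 (r = 0.941), Nt5dc1 (r = 0.925) and Dap (r = 0.900).

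**Figure D4:**
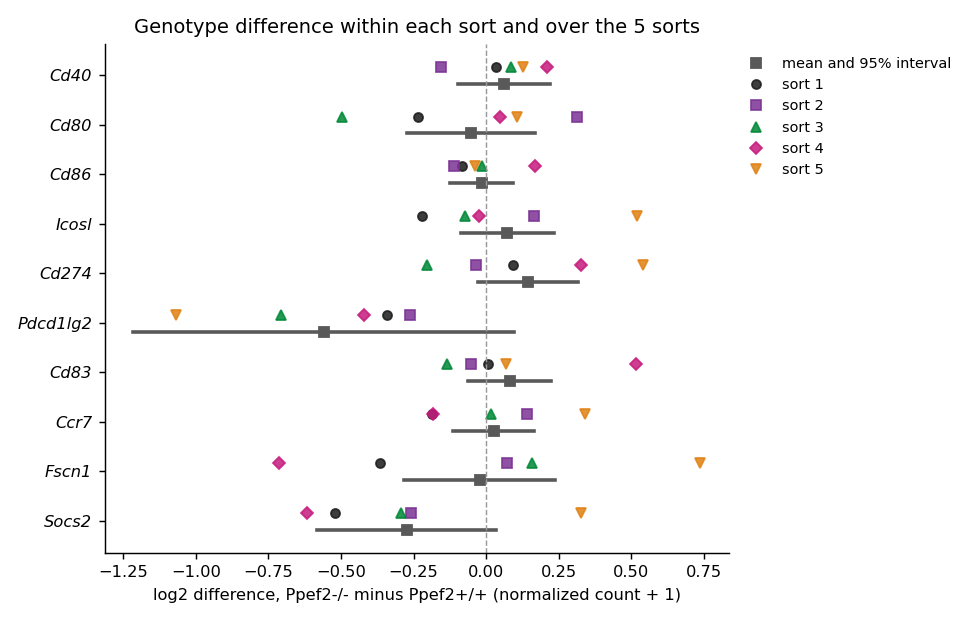
Log2 differences of Ppef2-/- minus Ppef2+/+ for the 10 genes, with a symbol per sort above and the mean over the 5 sorts with its 95% interval (limma, sort as a block) below. All 10 intervals include 0, and the sorts are the most scattered for Fscn1, from -0.71 to 0.74.

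The sorts thus differed in how the pair of libraries compared. Of the 10 genes, 3, 4, 3, 5 and 8 were higher in Ppef2-/- in sorts 1 to 5, while 49.0 to 52.3% of all genes were. In sort 5, Icosl, Cd274, Ccr7, Fscn1 and Socs2 were higher in Ppef2-/- by 0.33 to 0.74 on the log2 scale, and Pdcd1lg2 was lower by 1.07. In sort 4 the signs were mixed. Cd83 was higher in Ppef2-/- by 0.51 and Cd274 by 0.33, whereas Fscn1 was lower by 0.71 and Socs2 by 0.62. These sizes are of the deposited values and depend on the sort means that had been removed. With the sort means put back, the difference of Cd274 was 0.20 in sort 4 and 0.63 in sort 5. In sort 4 that of Fscn1 was then -0.67 and that of Socs2 -0.64. The within-sort spread was also wide for genes of their level in Icosl (percentile 97.7 of 1390 genes), Cd274 (96.7 of 2707), Cd83 (94.0 of 281) and Ccr7 (92.9 of 1428), but not in Cd86 (47.7 of 974), Socs2 (70.8 of 3457) or Pdcd1lg2 (8.38 of 1205).

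Other genes of these pathways were read from 4 lists with 82 genes in the table. In none of the lists did a gene have an adjusted p under 0.05. Of 24 other costimulatory and coinhibitory ligands and partners, 16 were in the table, among which 1 (6.25%, compared to 4.29% of all genes) had an unadjusted p under 0.05. This was Tnfsf9, the ligand of 4-1BB, with 50.9 ± 7.27 in Ppef2+/+ and 67.3 ± 7.27 in Ppef2-/- (SD, n = 5). Its log2 difference was 0.40 (adjusted p = 0.995), with 0.93 within sort 2 and 0.27 without that sort. The median of the 16 was -0.01, and the highest levels per kb were those of Havcr2, which encodes TIM-3 (1326 per kb), and Cd24a (1236).

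All 16 genes of CD40 signalling and NF-kappaB were in the table. Of these, 3 (18.8%, compared to 4.29% of all genes) had an unadjusted p under 0.05, and each had the higher mean in Ppef2-/-. They were Nfkb2, the precursor of p52 (log2 difference 0.13), Rel, which encodes c-Rel (0.12), and Tnfaip3, which encodes the inhibitor A20 (0.15), and each had an adjusted p of 0.995. Tnfaip3 was higher in Ppef2-/- in 3 of 5 sorts, with 0.58 in sort 4, and without that sort its log2 difference was 0.04. That of Nfkb2 was 0.08 without sort 3. The median of the list was 0.08. Nfkbia, which encodes IkappaBalpha, and Tnfaip3 were the highest per kb, with 1013 and 571.

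Of 18 genes of the SOCS family and the STAT5 pathway, 16 were in the table. Socs3, a feedback inhibitor of STAT3 signals, had the smallest p, with 78.1 ± 11.6 in Ppef2+/+ and 108.8 ± 11.6 in Ppef2-/- (SD, n = 5). It was higher in Ppef2-/- in 5 of 5 sorts, opposite to the mean of Socs2, with a log2 difference of 0.48 (unadjusted p = 0.00328, adjusted p = 0.995). It was the 1 gene of the list (6.25%, compared to 4.29% of all genes) with an unadjusted p under 0.05, and Pim1 (1220 per kb) and Csf2ra (1135) were the highest.

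The mature DC programme had 34 of its 40 genes in the table, with a median log2 difference of 0.05. Il12b, which encodes the p40 chain of IL-12, had 439.9 ± 57.2 in Ppef2+/+ and 536.0 ± 57.2 in Ppef2-/- (SD, n = 5) and a log2 difference of 0.29 (unadjusted p = 0.0061, adjusted p = 0.995). Serpinb9, an inhibitor of granzyme B, had a log2 difference of 0.20 and the tetraspanin Cd63 one of 0.46 (0.27 without sort 3), with an adjusted p of 0.995 each. These 3 (8.82%, compared to 4.29% of all genes) had an unadjusted p under 0.05, and 0 genes of the list had one in the other direction. Apol7c (2647 per kb) and Serpinb6b (515) were the highest. Of the 34 genes, 5, 25, 13, 18 and 29 were higher in Ppef2-/- in sorts 1 to 5, and the medians were -0.19, 0.11, -0.03, 0.01 and 0.38. The list was thus shifted towards Ppef2+/+ in sort 1 and towards Ppef2-/- in sort 5, as were Ccr7, Fscn1 and Socs2. The 4 markers did not follow the list in each sort, since Ccr7, Fscn1 and Socs2 were also lower in sort 4, where the median of the list was 0.01, Socs2 was lower by 0.26 in sort 2, and Cd83 differed by 0.01 in sort 1. The genes of the list and the markers were measured in the same libraries, so that these are 5 pairs of libraries and not 34 replicates.

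**Figure D5:**
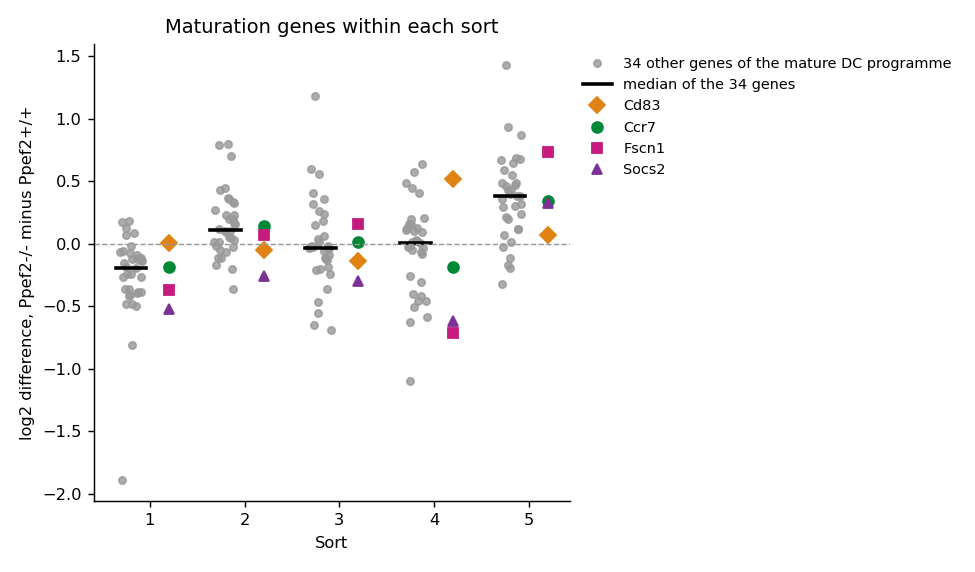
Log2 differences of Ppef2-/- minus Ppef2+/+ within each sort, with grey points for 34 other genes of the mature DC programme, a bar at their median and coloured symbols for Cd83, Ccr7, Fscn1 and Socs2. The median was -0.19 in sort 1 and 0.38 in sort 5, and Ccr7, Fscn1 and Socs2 lie below 0 in sort 1 and above 0 in sort 5.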

How the data were processed

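The authors prepared libraries with the TruSeq RNA kit, which does not keep the strand, and sequenced 50 bp single-end reads. Per the paper's methods the reads were aligned to mm10 with HISAT, whereas the submitters' processing notes name TopHat2 2.0.3, so the aligner is uncertain. The authors counted reads per RefSeq gene in Partek 6.6, normalized the counts with DESeq2 and floored them at 1, and genes whose larger genotype mean was under 10 were removed. The deposited values are thus a normalized count signal without a raw count. Of the columns of values, 10 were used and 0 left out.

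The sort means had been removed from the deposited values by a step that the methods do not name. The replicate number in the labels is the sort, and the numbers pair the libraries: around the genotype means, same-numbered libraries deviated with r = -1.00 in all 5 sorts (10721 genes). The sort was therefore kept as a block. Differences were tested with limma 3.58.1 (R 4.3.3, trend) on log2(deposited value + 1), two-sided, and adjusted by Benjamini-Hochberg for 10767 genes. The difference in a sort is on this scale, which understates the change of low genes. It also depends on the sort means that had been removed. The intervals are at 95%. The one-way model of the study has no term for the sort. The samples came from 5 separate sorts. The p-values of the blocked fit weigh a genotype difference against scatter within the sorts, and not against the spread of levels between sorts. With the trend, limma draws this scatter towards that of genes of a similar level. The SE and the interval thus do not rest on a gene's own 5 differences alone. The SE was 0.31 for Pdcd1lg2, whose differences had an SD of 0.33, and 0.12 for Fscn1, where the SD was 0.55.

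Whole reads were calculated back from the values of both libraries of a sort and from the sums over the sorts, with a value of 1 read between 0.464 and 1.50 normalized counts. A unique solution was found for 9697 genes (90.1%). The other genes were not resolved. Cd83, Cd86, Icosl and Ccr7 were among them because no solution was sought for genes with a mean of 1000 or more. On simulated data 9547 of 9547 resolved genes had the reads that were drawn. With 200 changed genes among 10684, the blocked fit recovered 98.5% and called 3 unchanged genes, and the fit without the block 93.0% and 180. The recovery of differences as small as those of the 10 genes, or of genes as low as Pdcd1lg2, was not tested. The percentile of a within-sort SD is among genes of a similar mean, and exonic lengths, positions and overlaps are from GENCODE M21.

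The 10 genes, the 4 lists and the markers were chosen with earlier results of these data known. Named are the 10 genes, Ppef2, in each list the genes with an unadjusted p under 0.05 (at most 5) and the 2 highest per kb, and for each gene with whole reads the 3 genes most like it.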

Additional observations from a re-analysis of the deposited data

How the results depend on the processing

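With the sort as replicate block or without it, and under the other alternatives, 0 of the 10 genes and 0 genes of the 4 lists had an adjusted p under 0.05. The fit with no replicate block called 103 of all genes against 1 with it, and 1888 against 462 at an unadjusted p under 0.05, where Pdcd1lg2 and Socs2 were then included. Without a trend in eBayes or with voom 1 of the 10 genes had an unadjusted p under 0.05, and with 1 sort left out 0 to 2 did. The lowest adjusted p of any of the 10 was 0.106, for Pdcd1lg2 without the block. Other pseudocounts, a filter on the mean, both scalings, voom on whole reads and the sort means put back, which was chosen after seeing the data, kept the direction of each gene that could be fitted. Leaving out both libraries of 1 sort changed the direction of Cd80 (-0.14 to 0.058), Cd86 (-0.062 to 0.0085), Cd83 (-0.028 to 0.13), Icosl (-0.039 to 0.15), Ccr7 (-0.053 to 0.078) and Fscn1 (-0.21 to 0.15). It left the direction of Cd40 (0.02 to 0.11), Cd274 (0.05 to 0.23), Pdcd1lg2 (-0.63 to -0.43) and Socs2 (-0.42 to -0.19). The cause of these changes was not tested. Voom and the put-back means had no value for Cd83, Cd86, Icosl and Ccr7, and the filter on the mean removed Pdcd1lg2. For Pdcd1lg2, with 140 reads, the 95% interval of the blocked fit runs from 0.431 to 1.07 times Ppef2+/+. This ratio is of the deposited value + 1 and not of the level itself.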

Other observations

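Of the 20 groups of 5 libraries checked for a value far from the others, 0 stood out, where 1 would by chance. The groups are not independent, since Cd83, Cd86, Icosl and Ccr7 were checked on deposited values, where 1 genotype mirrors the other. The other genes were checked with the sort means put back. The genes most like Cd40 over the 10 libraries were Tmem173, which encodes STING (r = 0.921), Aldh16a1 (r = 0.920) and Ogfr (r = 0.864). For Cd80 they were Emc1 (r = 0.912), Cmc1 (r = 0.907) and Htatsf1 (r = 0.880), and for Pdcd1lg2 they were Exosc10 (r = 0.912), Palm (r = 0.890) and Ski (r = 0.852). Among the 6 genes with whole reads, the highest r over the 10 libraries were those of Fscn1 with Socs2 (0.629) and with Cd274 (0.623), and Cd274 with Pdcd1lg2, its neighbour on chromosome 19, had r = 0.127. These values are descriptions, since both libraries of a sort share that sort.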
